A study of Mus musculus with 8 samples.

Results

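The genes described here are those measured in both RNA-sequencing experiments of the study, so that the response to an activated form of beta-catenin can be set beside the response to loss of the arginine methyltransferase PRMT1. Members were chosen by their symbol and their mean count: the same symbol, ignoring case, had to occur once in each table, and the mean count over 4 libraries had to reach 10 in each experiment. This left 9547 genes, of 21757 in the mouse table and 60237 in the human tables, which share 15109 such symbols. Just inside the threshold were AFP, with mean counts of 132 in the genotype and 10 in the knockdown experiment, and AZGP1, with 10 and 201. Just outside were PAOX, with 262 and 9.80, and AGBL3, with 9.75 and 47.4. Of the members, 9441 also passed the filter on low counts in both fits, and every share below is over these. In 623 of the 9547, at least 1 of the 4 groups had a mean count under 10.

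Each of the 2 experiments held 2 groups of 2 libraries of polyadenylated RNA, prepared with a custom form of Smart-seq2. In the genotype experiment, wild-type (WT) mouse small-intestinal organoids grown with Wnt3a, R-spondin1, Noggin and EGF were compared with Ctnnb1-ex3 organoids grown with Noggin and EGF alone, so that genotype and medium differed together and cannot be told apart. Ctnnb1-ex3 is the usual name of an allele without exon 3 of the beta-catenin gene; the labels do not say how it was induced or how many lines or animals stand behind a group. In the knockdown experiment, libraries with a hairpin RNA directed at Prmt1 (sh-Prmt1) were compared with libraries that carried a scrambled hairpin (sh-scramble). The labels name mouse organoids for these libraries too, but their tables hold human genes, so their tissue, culture and medium are not established here. Separate cultures are not stated for the replicates, so the p-values measure the spread among libraries alone, and that spread may be technical. The experiments share no library.

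Genotype libraries held 2950110 to 6012450 counts and knockdown libraries 39602913 to 53187068 estimated counts. All 12 epithelial and intestinal label markers, among them EPCAM, CDX2, VIL1 and CDH17, were above the lowest value in all 8 libraries. Their summed level was 2730 to 4320 CPM (counts scaled to library size) in the genotype libraries, 3770 to 3840 in sh-scramble and 5410 to 5710 in sh-Prmt1. Markers of stromal and endothelial cells summed to 27.5 to 67.2 CPM in the genotype and 7.12 to 12.6 CPM in the knockdown libraries. Immune and blood markers summed to 116 to 330 and to 9.03 to 14.1 CPM. In the genotype libraries much of that sum was LCP1, at 57.3 to 146 CPM, and CD14, at 25.4 to 60.0 CPM. LYZ2 added 69.8 CPM in WT replicate 1. The lymphocyte protease gene GZMA reached 29.9 CPM in Ctnnb1-ex3 replicate 2 and at most 0.339 in any other library. In the genotype experiment CORO1A (13.9 CPM), NKG7 (7.61) and PTPRC (6.79) were also highest in that library. The part of such cells in the results below was not tested.

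Beta-catenin is the effector of canonical Wnt signalling. A destruction complex built on AXIN and APC marks it for degradation through residues encoded by exon 3, and when that mark is missing it accumulates and activates genes together with TCF and LEF factors. In the intestine this programme maintains crypt stem cells and their division, and it recedes as cells mature on the villus. PRMT1 is the main enzyme that adds asymmetric dimethyl marks to arginine, on histones and on many RNA-binding and DNA repair proteins.

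PRMT1 itself was among the 6 genes with the largest changes in both experiments in the class that rose with the genotype and fell with the knockdown. Its level was 10.1 and 11.4 CPM in WT and 51.3 and 32.4 in Ctnnb1-ex3, a rise of 1.97 ± 0.33 (log2 fold change ± SE; edgeR adjusted p = 0.00286, the quasi-likelihood test with Benjamini-Hochberg adjustment used throughout). In the knockdown experiment it was 37.0 and 34.2 CPM in sh-scramble, against 2.99 and 3.35 in sh-Prmt1, a change of -3.48 ± 0.12 (edgeR adjusted p = 1e-06). The groups did not overlap in either experiment and the libraries labelled sh-Prmt1 held the lower levels. Of the 12 matched methyltransferase genes and partners on a fixed list, 3 (25.0%) rose and 1 (8.33%) fell in the genotype experiment. In the knockdown 2 (16.7%) rose and 5 (41.7%) fell. Among all matched genes, 19.6% rose and 21.7% fell with the genotype, and 26.7% rose and 26.1% fell with the knockdown. The list was not tested against these shares. PRMT5, the main enzyme for symmetric dimethylation, went the way of PRMT1, with log2 fold changes of 0.54 and -0.98. Its genotype call was lost without WT replicate 1 (0.48, adjusted p = 0.199) or WT replicate 2 (0.55, adjusted p = 0.147) in edgeR. BTG1, a growth-arrest protein that binds PRMT1, went the other way, with -0.55 and 0.46, and its genotype call was also lost without WT replicate 1 (-0.66, edgeR adjusted p = 0.121), WT replicate 2 (-0.49, edgeR adjusted p = 0.21) or Ctnnb1-ex3 replicate 1 (-0.47, edgeR adjusted p = 0.0956), with upper-quartile factors (-0.32, edgeR adjusted p = 0.125) and under cyclic loess with limma (-0.10, adjusted p = 0.488).

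Across all genes of each table, 20.3% rose and 20.4% fell in Ctnnb1-ex3 organoids, and 20.6% rose and 20.4% fell in sh-Prmt1 libraries. A gene was called where its adjusted p was under 0.05, with no limit on the fold. Among matched genes, 1854 rose (19.6%) and 2049 fell (21.7%) with the genotype, and 2523 rose (26.7%) and 2466 fell (26.1%) with the knockdown. Both experiments called 2068 of the matched genes. Of these, 431 rose in both (4.57% of matched genes), 555 fell in both (5.88%), 457 rose with the genotype and fell with the knockdown (4.84%), and 625 did the reverse (6.62%). Same-direction genes thus numbered 986 and opposite-direction genes 1082. A further 1835 genes were called in the genotype experiment only, 2921 in the knockdown only and 2617 in neither.

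Gene by gene, the responses showed almost no linear relation. The Pearson correlation of the log2 fold changes was -0.03 and the Spearman correlation -0.01 over 9441 genes, as a description; the points share the libraries of each experiment. Among genes called in both the values were -0.09 and -0.09. Of the genes that rose with the genotype, 23.2% also rose and 24.6% fell with the knockdown; of those that fell, 27.1% also fell and 30.5% rose. Read from the knockdown side, 17.1% of its rises rose and 24.8% fell with the genotype, and of its falls 18.5% rose and 22.5% fell. The authors' deposited tables, whose adjusted p-values were given in both for 8816 of the genes, held 199 that rose in both, 504 that fell in both, 313 that rose and then fell and 404 of the reverse kind at the same threshold, with a Pearson correlation of -0.03. Without WT replicate 1 the same-direction and opposite-direction counts were 551 and 621, and without WT replicate 2 they were 471 and 564.

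**Figure D1:**
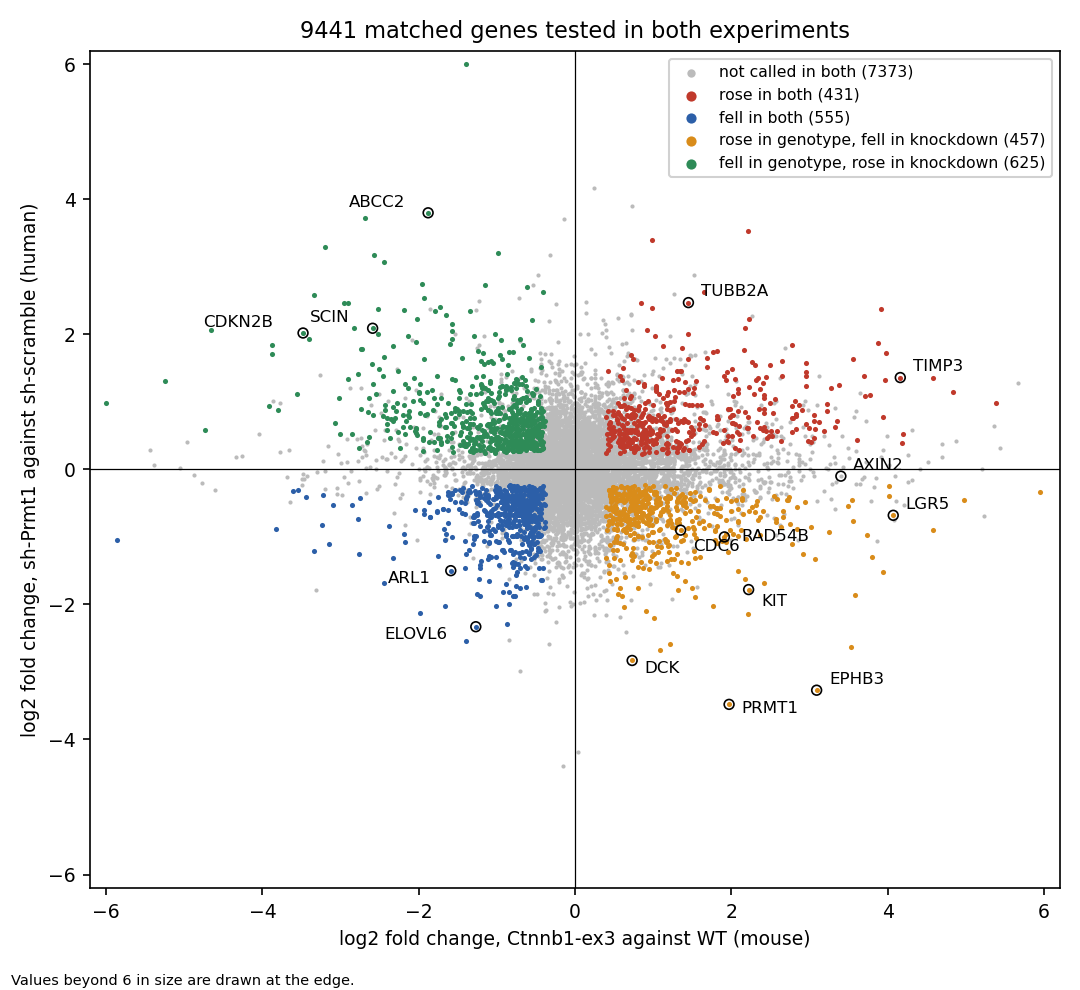
Log2 fold change of each of the 9441 matched genes tested in both experiments, with Ctnnb1-ex3 against WT on the horizontal axis and sh-Prmt1 against sh-scramble on the vertical axis; colours mark the 4 classes of genes called in both, and grey points were not called in both. Values beyond 6 in size are drawn at the edge; all quadrants are filled, and PRMT1 and EPHB3 lie at the lower right.

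Larger changes were spread over the same 4 classes. At least 2-fold in both experiments were 82 of the genes that rose in both, 36 of those that fell in both, 57 that rose with the genotype and fell with the knockdown, and 99 of the reverse class. The log2 fold change ran with the level of the gene, with a Spearman correlation across genes of -0.43 in the genotype and -0.24 in the knockdown experiment. Normalization by cyclic loess, which removes such a trend, brought these to -0.01 and -0.09. Upper-quartile factors moved the median genotype change of matched genes from -0.03 to 0.21 and the share of genotype calls that were rises from 47.5% to 68.1% (2717 rises and 1275 falls); the genotype changes below are therefore relative to the bulk of genes under the TMM scaling.

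Pathways were compared by the medians of 48 gene lists with at least 5 tested members, each less the median of all matched genes. With a size of at least 0.25 asked of both medians, 8 lists moved in opposite directions and 3 in the same direction. DNA replication, mitosis, DNA repair and enteroendocrine genes were above the rest with the genotype and below it with the knockdown. Enterocyte, lysosome, goblet cell and cell junction genes were below with the genotype and above with the knockdown. Matrix genes, Eph receptors with their ephrin ligands, and tuft cell genes were above in both, and no list was below in both by this measure. Some lists share members, and none was tested as a set. Where a count of 0 is given below for rises or falls with the genotype in ribosome biogenesis, stem cell, enterocyte, cholesterol or oxidative phosphorylation genes, it is from edgeR, and the count was also 0 at an unadjusted p under 0.05 and with DESeq2.

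**Figure D2:**
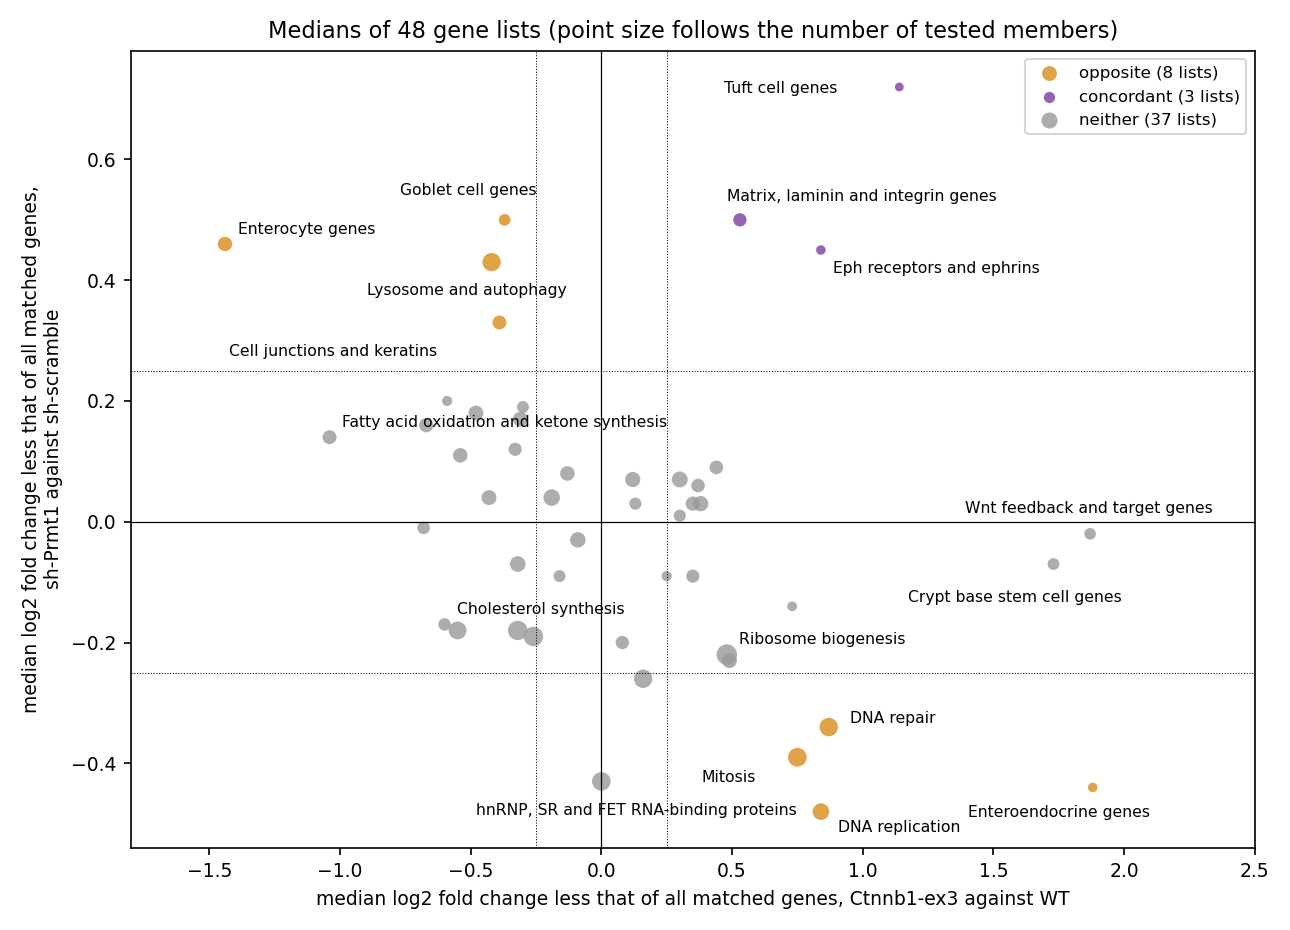
Median log2 fold change of the tested members of 48 gene lists, less the median of all matched genes, in the genotype (horizontal) and knockdown experiment (vertical); dotted lines mark 0.25 in size, and point size follows the number of tested members. The 3 large lists at the lower right are DNA replication, mitosis and DNA repair, and enterocyte genes lie at the far left with a knockdown median above that of all genes.

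Genes of DNA replication mostly rose in Ctnnb1-ex3 organoids and mostly fell in sh-Prmt1 libraries. Of 52 tested members, 40 rose and 1 fell with the genotype, while 4 rose and 30 fell with the knockdown. 19 members (36.5%) were called up in the first and down in the second, against 4.84% of all matched genes. The medians less that of all genes were 0.84 and -0.48. CDC6, which loads the replicative helicase onto origins, stood at 25.3 and 22.8 CPM in WT and at 61.8 and 61.9 in Ctnnb1-ex3 (log2 fold change 1.35 ± 0.20, SE; edgeR adjusted p = 0.00157). Its levels in sh-scramble were 59.7 and 55.0 CPM and in sh-Prmt1 30.7 and 30.7 (-0.90 ± 0.09, SE; edgeR adjusted p = 4.64e-05). Neither pair of groups overlapped. GINS1, a subunit of the active helicase, had log2 fold changes of 1.33 and -0.74. GINS2, its partner, had 0.78 and -0.80, and without WT replicate 1 its genotype value was 0.73 with an edgeR adjusted p of 0.0595. The nuclease DNA2, which processes Okazaki fragments, had 0.93 and -0.97, with an edgeR adjusted p of 0.0616 for a genotype value of 0.88 without WT replicate 2. POLA1, the catalytic subunit of the polymerase that starts DNA strands, was singled out after its values were seen, because of its promoter. It rose from 91.0 and 78.4 CPM to 225 and 225 (1.40, edgeR adjusted p = 0.000442). In the knockdown it went from 19.5 and 15.4 CPM to 12 and 12.9 (-0.48, edgeR adjusted p = 0.0159). That call was lost without sh-scramble replicate 1 (-0.36, edgeR adjusted p = 0.0791) and without sh-Prmt1 replicate 1 (-0.44, edgeR adjusted p = 0.0541).

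Mitosis genes showed the same arrangement. Of 69 tested members, 46 rose and 1 fell with the genotype, and 6 rose and 41 fell with the knockdown. A rise in the first and a fall in the second were called for 26 (37.7%), against 4.84% of all matched genes. The medians less that of all genes were 0.75 and -0.39. ECT2, the exchange factor that activates RhoA for cytokinesis, was at 67.7 and 73.1 CPM in WT and at 115 and 157 in Ctnnb1-ex3 (0.95 ± 0.18, SE; edgeR adjusted p = 0.00455). It went from 297 and 291 CPM in sh-scramble to 130.0 and 148 in sh-Prmt1 (-1.08 ± 0.09, SE; edgeR adjusted p = 3.11e-05). In both experiments the groups were apart. RACGAP1, which pairs with ECT2 at the spindle midzone, moved from 73.7 and 57.9 to 124 and 113 CPM (0.84) and from 97.7 and 102 to 37.5 and 39.7 CPM (-1.37). Its genotype call was lost without WT replicate 2 (0.67, edgeR adjusted p = 0.0745). DLGAP5, a spindle protein, had 1.18 and -0.82. The proliferation marker MKI67 went from 261 and 241 to 424 and 473 CPM with the genotype (0.84), and from 202 and 163 to 135 and 148 CPM with the knockdown (-0.36, edgeR adjusted p = 0.0268). The genotype call of MKI67 was lost without WT replicate 1 (0.87, edgeR adjusted p = 0.0794) or WT replicate 2 (0.76, edgeR adjusted p = 0.0696). The knockdown call was lost without sh-scramble replicate 1 (-0.26, edgeR adjusted p = 0.085) or sh-Prmt1 replicate 1 (-0.31, edgeR adjusted p = 0.121), and under cyclic loess with limma (-0.20, adjusted p = 0.179). CDC25B, the phosphatase that triggers entry into mitosis, was among 5 members that rose in both, with 0.81 and 0.88; without WT replicate 1 its genotype value was 0.60 (edgeR adjusted p = 0.132).

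DNA repair genes were the third large list of this kind. Of 66 members, 41 rose and 2 fell with the genotype, and 2 rose and 33 fell with the knockdown. A rise in the first and a fall in the second were called for 21 (31.8%), against 4.84% of all matched genes. The medians less that of all genes were 0.87 and -0.34. BARD1, partner of BRCA1 in a ubiquitin ligase for recombination repair, stood at 26 and 20.9 CPM in WT and at 57.7 and 50.6 in Ctnnb1-ex3 (1.20 ± 0.22, SE; edgeR adjusted p = 0.00464). It was at 93.9 and 137 CPM in sh-scramble and at 56.7 and 50.1 in sh-Prmt1 (-1.12 ± 0.16, SE; edgeR adjusted p = 0.000402). The groups did not overlap. RAD54B, a motor protein of recombination, had 1.91 and -1. BRCA1 had 1.04 and -1.39, and its genotype call was lost without WT replicate 2 (0.90, edgeR adjusted p = 0.0859). PSMC3IP and MND1 encode the partners of a complex that assists strand exchange, best known from meiosis, and both were among the 6 genes ranked first in their class. PSMC3IP was at 14.7 and 7.23 CPM in WT, 49.6 and 52.7 in Ctnnb1-ex3, 65.3 and 78.1 in sh-scramble, against 26 and 20.9 in sh-Prmt1, with log2 fold changes of 2.17 and -1.62. Its genotype value was 2.78 without WT replicate 1. MND1 had 1.54 and -1.89, with an edgeR adjusted p of 0.0574 for a genotype value of 1.42 without WT replicate 2.

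The promoters of these genes were searched for short words of the cell division and Wnt programmes, in the mouse sequence only. RefSeq windows of build GRCm38.p6 were found for 7668 of the 9441 genes, and the 250 bases before the first listed start were read on both strands. A CCAAT box, searched as those 5 letters, stood in 34.5% of all 27025 promoters of the table, in 36.6% of matched genes, in 72.4% of 58 mitosis promoters, 51.2% of 43 replication and 58.8% of 51 repair promoters. The CHR-type words searched were TTTGAA and also TTCGAA. CHR-type words stood in 17.4% of all promoters, 11.6% of matched genes and 41.4% of mitosis promoters. The E2F-type words searched were TTTGGCGC, then TTTCCCGC, then TTTGCCGC and finally TTTCGCGC. E2F-type words stood in 1.91% of all, 3.66% of matched and 23.3% of replication promoters. The TCF/LEF-type words searched were CTTTGAT, then CTTTGTT, then CTTTGTA and finally CTTTGAA, and the last of these contains a CHR-type word. TCF/LEF-type words stood in 14.9% of all, 9.6% of matched genes, 15.5% of mitosis and 6.98% of replication promoters, and in 2 of the 13 Wnt target promoters. By class, genes that rose with the genotype and fell with the knockdown held a CCAAT box in 41.3% of 366 promoters, against 31.5% of 337 for those that rose in both, 34.3% of 449 for those that fell in both and 37.4% of 503 for those that fell and then rose. A word is only a match of letters. The sequences below are shown because they carry words that were counted in these lists, next to the window of Prmt1 and that of a lysosomal gene from the reverse class; capitals mark the words on either strand.
Pola1 (E2F-type and CCAAT box; chrX:93632156-93632405, minus strand): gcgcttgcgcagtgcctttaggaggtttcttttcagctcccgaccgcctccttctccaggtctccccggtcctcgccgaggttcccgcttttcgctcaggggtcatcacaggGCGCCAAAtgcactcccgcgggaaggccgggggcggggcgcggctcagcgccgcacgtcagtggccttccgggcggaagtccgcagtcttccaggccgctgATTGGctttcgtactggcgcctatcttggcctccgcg
Mki67 (CHR-type and CCAAT box; chr7:135716380-135716629, minus strand): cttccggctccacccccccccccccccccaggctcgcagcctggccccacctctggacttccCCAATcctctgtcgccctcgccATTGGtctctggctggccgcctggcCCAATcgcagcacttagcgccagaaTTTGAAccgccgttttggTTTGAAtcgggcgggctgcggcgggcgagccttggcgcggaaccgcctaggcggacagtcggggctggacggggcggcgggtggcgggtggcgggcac
Racgap1 (CCAAT box; chr15:99651657-99651906, minus strand): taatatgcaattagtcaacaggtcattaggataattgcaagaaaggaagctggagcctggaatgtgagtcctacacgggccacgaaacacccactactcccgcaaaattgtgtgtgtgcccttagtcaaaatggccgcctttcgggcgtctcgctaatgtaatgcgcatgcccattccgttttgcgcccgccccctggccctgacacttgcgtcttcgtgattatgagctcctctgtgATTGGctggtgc
Prmt1 (CCAAT box; chr7:44986569-44986670, minus strand, the 102 bases of the window outside the annotated gene): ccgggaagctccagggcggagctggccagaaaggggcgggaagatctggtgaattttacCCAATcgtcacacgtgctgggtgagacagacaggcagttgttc
Atp6ap1 (CCAAT box; chrX:74296847-74297096, plus strand): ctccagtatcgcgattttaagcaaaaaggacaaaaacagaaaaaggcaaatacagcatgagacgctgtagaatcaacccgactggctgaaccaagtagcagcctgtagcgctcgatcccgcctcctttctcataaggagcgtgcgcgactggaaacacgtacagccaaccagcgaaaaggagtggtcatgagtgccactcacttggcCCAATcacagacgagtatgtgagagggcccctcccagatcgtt
Each printed stretch lies upstream of its gene and outside any GENCODE vM21 gene; the genes themselves are annotated as protein-coding, with Racgap1 on chromosome 15 from 99620496 to 99651656 and Prmt1 on chromosome 7 from 44975989 to 44986568, both on the minus strand.

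The lists next to these in function came close to the limit for opposite lists. Ribosome biogenesis genes had medians less that of all genes of 0.48 and -0.22. Of 85, 40 rose and 0 fell with the genotype and 12 rose and 36 fell with the knockdown. The rise-then-fall class held 14 (16.5%) and 9 (10.6%) rose in both, against 4.84% and 4.57% of all matched genes. RRP1B, a nucleolar protein, had 1.99 and -0.62, and UTP20, a component of the small subunit processome, 1.04 and -0.73. Nucleotide and one-carbon synthesis genes had medians of 0.49 and -0.23, with 10 of 39 (25.6%) in the rise-then-fall class, against 4.84% of all matched genes. DCK, the kinase that salvages deoxycytidine, was at 42.2 and 40.4 CPM in WT, 82.0 and 54.5 in Ctnnb1-ex3, 55.2 and 64.7 in sh-scramble, against 6.89 and 9.81 in sh-Prmt1. Its fall with the knockdown was -2.83 ± 0.16 (SE; edgeR adjusted p = 5.15e-06). Its rise with the genotype, 0.73, failed without WT replicate 1 or WT replicate 2 (0.73, edgeR adjusted p = 0.111, and 0.69, edgeR adjusted p = 0.132), without Ctnnb1-ex3 replicate 1 (0.38, edgeR adjusted p = 0.13), under DESeq2 (0.73, adjusted p = 0.0615) and under cyclic loess with limma (0.59, adjusted p = 0.0529).

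Cyclins, kinases and their inhibitors did not move as a block. Of 28 G1 cyclins, CDKs and E2F factors, 8 (28.6%) rose and 4 (14.3%) fell with the genotype, beside 19.6% and 21.7% of all matched genes. With the knockdown 10 (35.7%) rose and 10 (35.7%) fell, beside 26.7% and 26.1%, and medians were 0.35 and -0.09. CDKN2B, the inhibitor p15 of CDK4 and CDK6, fell and then rose: 215 and 223 CPM in WT, 18.3 and 21.3 in Ctnnb1-ex3 (-3.48 ± 0.15, SE; edgeR adjusted p = 2.39e-05). In the knockdown it was near the bottom of the range, at 0.944 and 0.778 CPM in sh-scramble, against 3.85 and 3.15 in sh-Prmt1 (2.02 ± 0.25, SE; edgeR adjusted p = 0.00018). CDKN1A, the inhibitor p21, went the same way, from 273 and 326 to 169 and 206 CPM (-0.68, edgeR adjusted p = 0.0188) and from 31.1 and 30.9 to 42.6 and 39.5 CPM (0.40, edgeR adjusted p = 0.00463). Its genotype call was lost without WT replicate 2 (-0.56, edgeR adjusted p = 0.142), with upper-quartile factors (-0.44, edgeR adjusted p = 0.0602) and under cyclic loess with limma (-0.25, adjusted p = 0.112). RB1, the retinoblastoma protein that restrains E2F, fell in both, from 140.0 and 149 to 50.1 and 46.8 CPM (-1.57) and from 56.3 and 57.7 to 25.6 and 31.5 CPM (-1). CDK6 rose in both, with 2.53 and 0.83.

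Wnt targets and stem cell genes mostly rose with the genotype and were mostly not called in the knockdown. Of 19 Wnt feedback and target genes, 16 (84.2%) rose and 1 (5.26%) fell with the genotype, beside 19.6% and 21.7% of all matched genes. With the knockdown 1 (5.26%) rose and 3 (15.8%) fell, beside 26.7% and 26.1%. The medians less that of all genes were 1.87 and -0.02. AXIN2, the scaffold of the destruction complex, was at 13.6 and 12.9 CPM in WT and at 131 and 152 in Ctnnb1-ex3 (3.40 ± 0.17, SE). It was at 45.0 and 47.5 CPM in sh-scramble, against 43.5 and 42.7 in sh-Prmt1 (-0.10 ± 0.08, SE; edgeR adjusted p = 0.36), lower in both sh-Prmt1 libraries but not past the threshold. MYC, a growth factor-responsive transcription factor, had 1.25 (edgeR adjusted p = 0.000405) and 0.17 (edgeR adjusted p = 0.157; 0.33 and 0.00952 under cyclic loess with limma). CTNNB1 had -0.59 (edgeR adjusted p = 0.0504) and -0.72 (edgeR adjusted p = 0.0054). The genotype value of CTNNB1 passed in DESeq2 (-0.60, adjusted p = 0.0024) and when low-count genes were kept (-0.55, edgeR adjusted p = 0.0121). It also passed with the replicate block (-0.60, edgeR adjusted p = 0.000501) and without Ctnnb1-ex3 replicate 2 (-0.81). In 7 of 11 alternatives it stayed short of the threshold, and its smallest value was -0.10.

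EPHB3 had large changes of opposite sign. This receptor, which sorts crypt cells by their position, was at 11.7 and 14.1 CPM in WT and at 99.7 and 119 in Ctnnb1-ex3 (3.09 ± 0.20, SE; edgeR adjusted p = 6.81e-05). It was at 69.1 and 87.5 CPM in sh-scramble and at 7.54 and 8.6 in sh-Prmt1 (-3.27 ± 0.13, SE; edgeR adjusted p = 1.62e-06). Neither pair of groups overlapped, and the log2 fold change stayed between -3.49 and -3.11 under the 10 alternatives run on the knockdown fit. LGR5, the R-spondin receptor of crypt stem cells, rose from 12 and 15.6 to 225 and 231 CPM and fell from 29.8 and 35.3 to 20.0 and 20.6 CPM (4.07 and -0.68 ± 0.10, SE; edgeR adjusted p = 0.0007 in the knockdown). CCND1, cyclin D1, had 0.75 and -0.79, and its genotype call was lost without WT replicate 1 (0.78, edgeR adjusted p = 0.105) or WT replicate 2 (0.68, edgeR adjusted p = 0.105). LEF1, a partner of beta-catenin on DNA, had 2.42 and 1.10, but the genotype value was 1.24 without Ctnnb1-ex3 replicate 1 (edgeR adjusted p = 0.202) and 3.02 without Ctnnb1-ex3 replicate 2. The genotype call of LEF1 was also lost without WT replicate 1 (2.00) or WT replicate 2 (2.74). It was lost as well under DESeq2 (2.43, adjusted p = 0.0774) and under cyclic loess with limma (0.88, adjusted p = 0.322). LEF1 had 4 and 4 counts in WT and reached the mean count of 10 there only through Ctnnb1-ex3. A gene this low in WT could enter only if it rose, so its genotype rise is no support for the Wnt target list.

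Of 20 crypt base stem cell genes, 19 rose with the genotype and 0 fell; in the knockdown 2 rose and 6 fell, and the medians were 1.73 and -0.07. CDCA7, a replication-associated chromatin protein, went from 110.0 and 88.3 to 224 and 270.0 CPM (1.31) and from 263 and 338 to 118 and 134 CPM (-1.25). PLA2G2A, a secreted phospholipase of crypt cells, rose in both, from 3.23 and 2.28 to 74.4 and 91.0 CPM (4.84, or 4.22 under cyclic loess) and from 1.78 and 2.38 to 4.76 and 4.49 CPM (1.15). The mouse gene is annotated as a polymorphic pseudogene. Whether these organoids carried an intact form was not established here, so the rise is one of RNA alone. KIT, a receptor tyrosine kinase listed here with Paneth cell genes, was at 18.4 and 16.0 CPM in WT, 88.1 and 73.2 in Ctnnb1-ex3, 51.9 and 45.1 in sh-scramble, against 12.9 and 15.3 in sh-Prmt1. Its log2 fold changes were 2.22 ± 0.21 and -1.78 ± 0.11 (SE). The centrosome and microtubule gene TACC1 had 1.77 and -2.02, on WT counts of 40 and 18. Enteroendocrine genes also met the limit for opposite lists, with medians of 1.88 and -0.44 over 9 members, of which 8 rose with the genotype, but in the knockdown only 1 rose (CPE, 1.23) and 1 fell (FOXA2, -0.47). Without sh-Prmt1 replicate 2 the knockdown median of that list was -0.08, and under cyclic loess its genotype median was 1.13. At a mean count of at least 50 it had too few tested members to be compared.

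**Figure D3:**
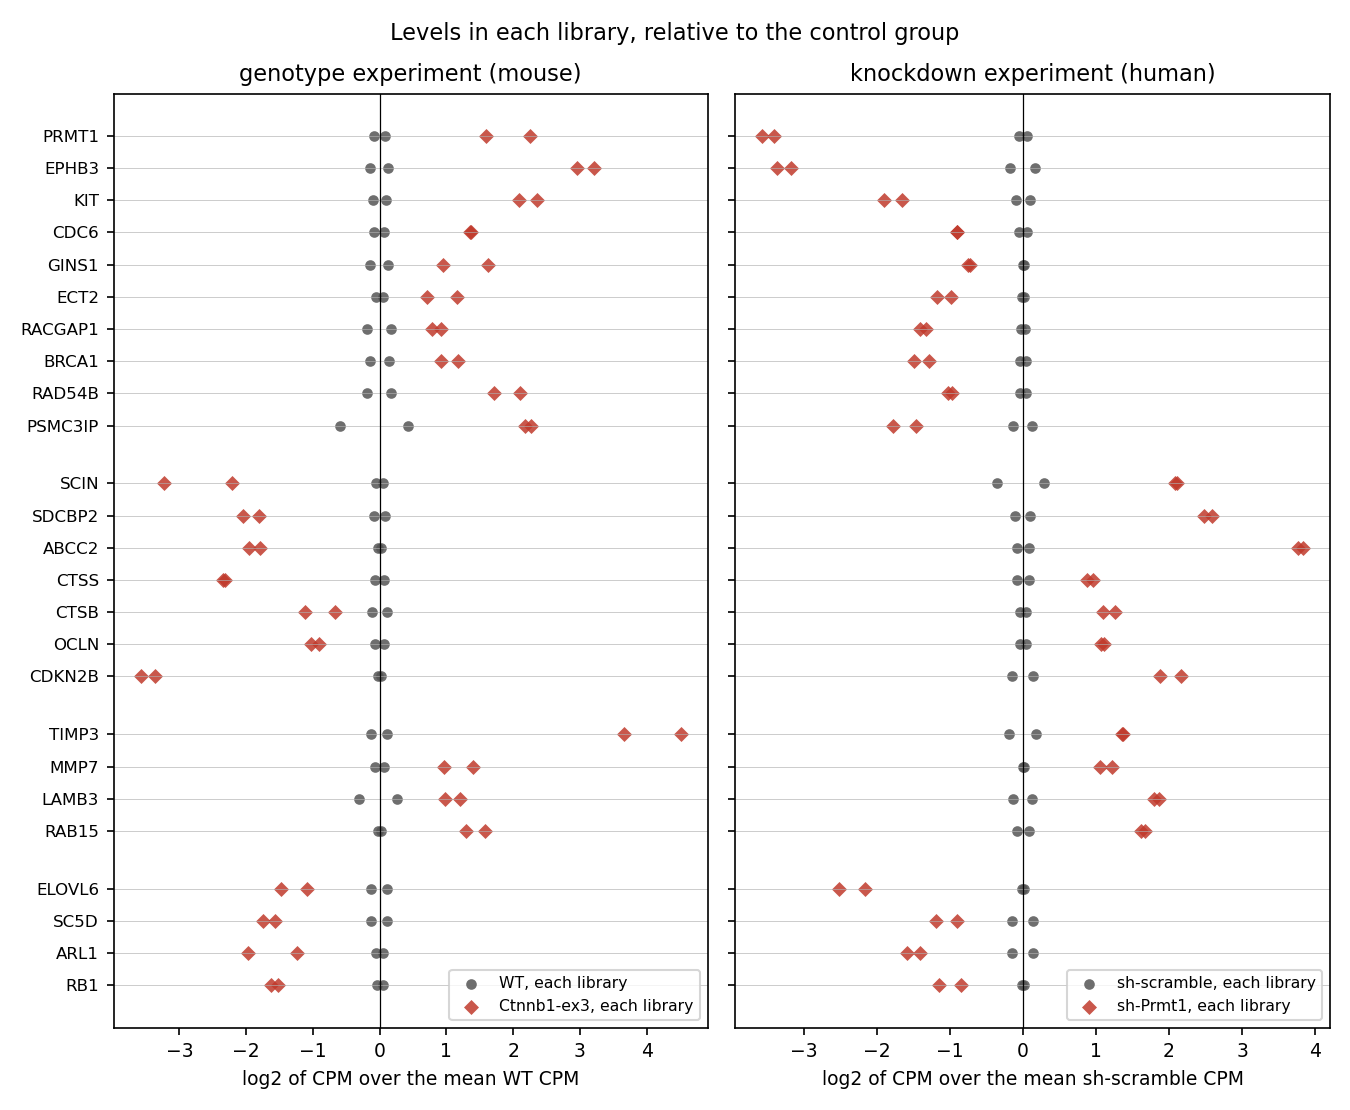
Level of 25 named genes in each library, as the log2 of CPM over the mean CPM of the control group, WT on the left and sh-scramble on the right; circles are control libraries and diamonds the other group. From top to bottom the blocks hold genes that rose then fell, fell then rose, rose in both and fell in both, and in each row the diamonds lie apart from the circles.

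Genes of mature absorptive cells went the opposite way. Of 36 enterocyte genes, 31 fell and 0 rose with the genotype, while 18 rose and 5 fell with the knockdown; 16 (44.4%) fell in the first and rose in the second, against 6.62% of all matched genes, and the medians less that of all genes were -1.44 and 0.46. In bulk libraries, fewer cells of a type and less RNA per cell cannot be told apart. MOGAT2, which resynthesizes dietary fat in enterocytes, was at 222 and 221 CPM in WT and at 48.7 and 23.6 in Ctnnb1-ex3 (-2.57 ± 0.28, SE; edgeR adjusted p = 0.000484), and its genotype value was -3.24 without Ctnnb1-ex3 replicate 1. In the knockdown MOGAT2 had 3 and 1 counts in sh-scramble, against 23 and 24 in sh-Prmt1 (3.17 ± 0.70, SE; edgeR adjusted p = 0.00531). That value was 4.15 without sh-scramble replicate 1, 2.51 without sh-scramble replicate 2 (edgeR adjusted p = 0.054) and 2.19 under cyclic loess. The retinol carrier RBP2 had 0 counts in both sh-scramble libraries and 61 and 31 in sh-Prmt1, at least 15.1-fold higher against a floor of 3 counts per library (counting error only), whereas the genotype libraries held 451 to 1036 counts. AQP8, another member, had 12 and 6 counts in sh-scramble, against 34 and 41 in sh-Prmt1 (1.71, edgeR adjusted p = 0.0217). Its knockdown call was kept in 6 of 10 alternatives and lost under DESeq2 (1.66, adjusted p = 0.121). MOGAT2, RBP2 and AQP8 reached the mean count of 10 in the knockdown only through sh-Prmt1. Genes this low in sh-scramble could enter only if they rose, so these rises are no support for the list. The counts and medians of the list above include them. Of the 59 enterocyte genes listed, 36 were tested.

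Ranked by the smaller of the 2 changes, the first 6 genes of the class that fell and then rose were SCIN, SDCBP2, ABCC2, HMOX1, TMEM144 and SLC35D2. SCIN, an actin-severing protein, was at 196 and 209 CPM in WT and at 43.5 and 21.6 in Ctnnb1-ex3 (-2.59 ± 0.27, SE; edgeR adjusted p = 0.000422; -3.24 without Ctnnb1-ex3 replicate 1). It was at 3.07 and 4.79 CPM in sh-scramble and at 17.0 and 16.7 in sh-Prmt1 (2.09 ± 0.18, SE; edgeR adjusted p = 3.2e-05). ABCC2, the apical exporter of conjugates also called MRP2, went from 284 and 295 to 74.6 and 83.3 CPM (-1.88 ± 0.15, SE) and from 1.51 and 1.34 to 19.4 and 20.3 CPM (3.80 ± 0.15, SE; edgeR adjusted p = 1.52e-06). Within each experiment the groups of both genes were apart. SDCBP2, a syntenin scaffold, had -1.93 and 2.54, and HMOX1, haem oxygenase, -2.45 and 1.66. The genotype call of HMOX1 was lost without WT replicate 2 (-2, edgeR adjusted p = 0.146). The MYC antagonist MXD1 had -2.46 and 1.39, and the interferon-response factor IRF1 -1.20 and 1.25.

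Lysosome and autophagy genes were below other genes with the genotype and above them with the knockdown by their medians. Of 65 tested members, 29 (44.6%) fell and 3 rose with the genotype, and 39 (60.0%) rose and 8 fell with the knockdown. A fall in the first and a rise in the second were called for 16 (24.6%), against 6.62% of all matched genes. Medians less that of all genes were -0.42 and 0.43, and the genotype median was -0.22 under cyclic loess, inside the limit. CTSS, a lysosomal protease, was at 187 and 204 CPM in WT and at 38.5 and 39.3 in Ctnnb1-ex3 (-2.33 ± 0.14, SE; edgeR adjusted p = 5.36e-05), and at 40.2 and 36.2 in sh-scramble, against 74.5 and 69.9 in sh-Prmt1 (0.92 ± 0.09, SE; edgeR adjusted p = 5.67e-05). The related protease CTSB had -0.88 and 1.17. The proton pump subunits ATP6AP1 and ATP6V0D1 had -0.77 and 1.28, and -0.82 and 1.18. ATP6AP1 stood at 144 and 153 CPM in WT, 89.3 and 83.8 in Ctnnb1-ex3, 23.0 and 25.6 in sh-scramble, against 60.9 and 57.1 in sh-Prmt1.

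Cell junction and keratin genes had medians of -0.39 and 0.33 over 33 members. Of these, 13 fell with the genotype, 16 rose with the knockdown and 9 (27.3%) did both, against 6.62% of all matched genes. OCLN, the tight junction protein occludin, was at 202 and 222 CPM in WT, 104 and 113 in Ctnnb1-ex3, 24.4 and 25.8 in sh-scramble, against 52.6 and 53.9 in sh-Prmt1 (-0.97 and 1.09). CDH17, an intestinal cadherin, had -1.17 and 0.95, with -0.58 for the genotype under cyclic loess, and CLDN23, a claudin, -2 and 1.13. CLDN4, another claudin, rose in both (0.88 and 1.24), and its genotype call was lost without WT replicate 1 (0.63, edgeR adjusted p = 0.105). Goblet cell genes had medians of -0.37 and 0.50 over 20 members, yet only 1 of them, the mucin gene MUC13, fell with the genotype and rose with the knockdown (-0.86 and 1.54; edgeR adjusted p = 0.0772 for -0.71 without WT replicate 2, and limma adjusted p = 0.103 for -0.28 under cyclic loess). The reverse was found for 2 members, GALNT12, which starts sugar chains on mucins (0.94 and -1.48), and ATOH1. ATOH1, the factor that specifies secretory cells, went from 23.0 and 17.1 to 50.7 and 49.6 CPM (1.30) and from 8.01 and 8.63 to 2.38 and 3.15 CPM (-1.58). Under cyclic loess the genotype medians of these lists were -0.03 for junctions and -0.11 for goblet cells. The genotype median of the goblet cell list was also inside the limit when WT replicate 2 (-0.17) or Ctnnb1-ex3 replicate 1 (-0.17) was left out.

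**Figure D4:**
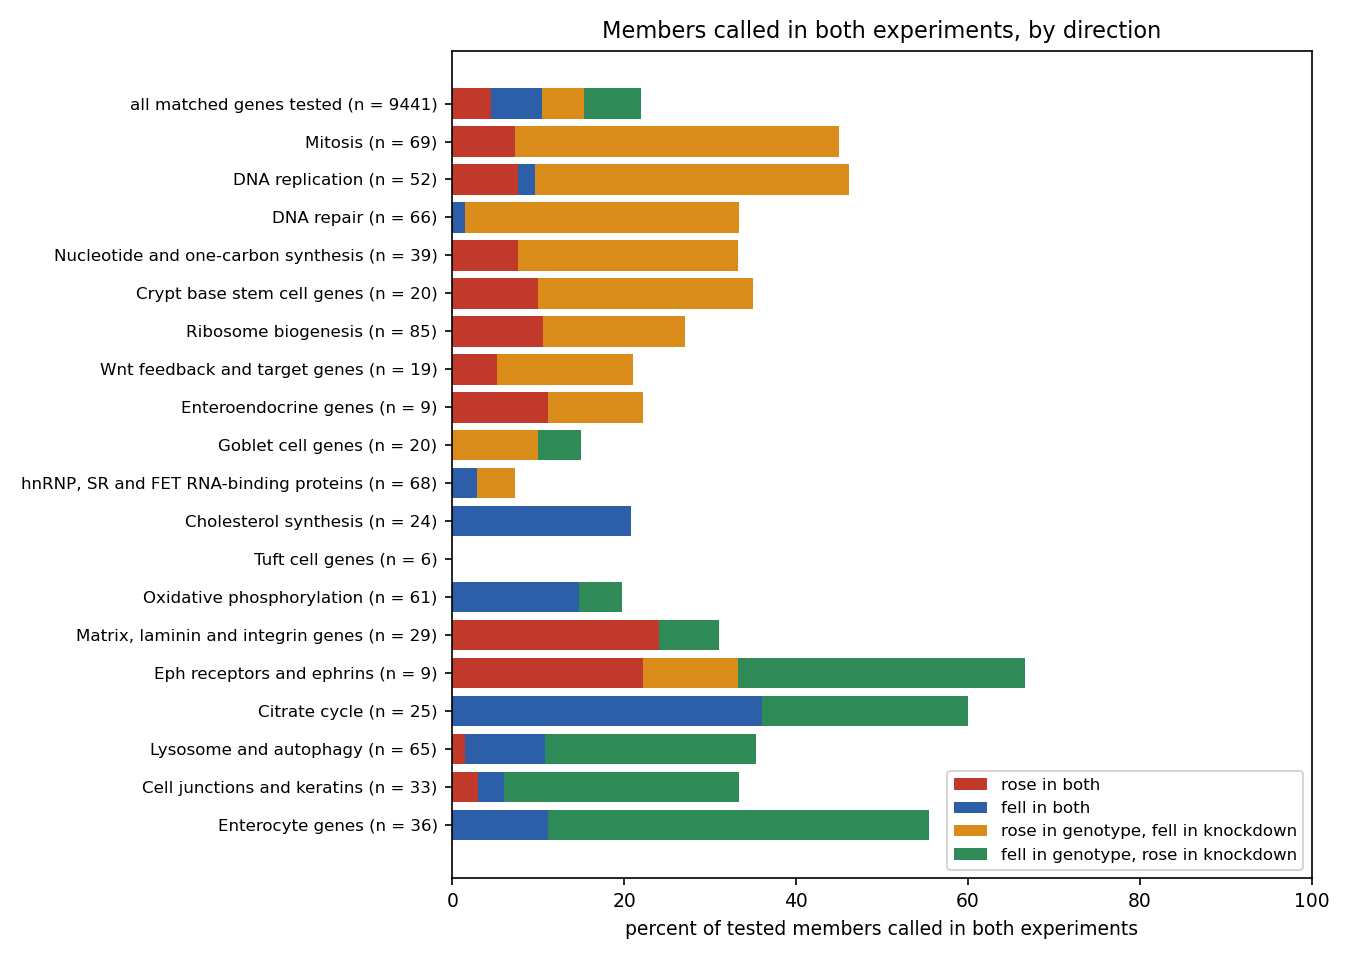
Share of the tested members of selected gene lists that were called in both experiments, split by direction, beside all 9441 matched genes tested; bars start at 0 and n is the number of tested members. Orange, for genes that rose with the genotype and fell with the knockdown, fills 36.5% of replication and 37.7% of mitosis genes, and green, for the reverse, 44.4% of enterocyte genes.

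Genes that rose in both experiments included several of the matrix and its receptors. Of 29 matrix, laminin and integrin genes, 12 rose and 2 fell with the genotype and 15 rose and 3 fell with the knockdown; 7 (24.1%) rose in both, against 4.57% of all matched genes. Medians less that of all genes were 0.53 and 0.50. MMP7, the matrix protease matrilysin, was at 94.0 and 85.3 CPM in WT, 175 and 236 in Ctnnb1-ex3 (1.19 ± 0.18, SE; edgeR adjusted p = 0.00187), 16.5 and 16.7 in sh-scramble, against 34.3 and 38.7 in sh-Prmt1 (1.14 ± 0.10, SE; edgeR adjusted p = 2.87e-05). TIMP3, an inhibitor of matrix proteases, rose from 1.61 and 1.90 CPM (7 and 5 counts) to 40.1 and 22.1 CPM with the genotype (4.16, or 3.15 under cyclic loess) and from 18.0 and 23.2 to 52.7 and 53.4 CPM with the knockdown (1.36). LAMB3, a chain of an epithelial laminin, had 1.12 and 1.83, with an edgeR adjusted p of 0.0757 for a genotype value of 0.81 without WT replicate 1. LAMA3, another chain of the same laminin, went in opposite directions (-2.83 and 2.09), and its genotype call was lost without WT replicate 2 (-2.11, edgeR adjusted p = 0.273); it was -3.43 without Ctnnb1-ex3 replicate 2. Marker sums for stromal cells, which also make matrix, were 27.5 to 41.7 CPM in WT and 56.2 to 67.2 in Ctnnb1-ex3, and 11.8 to 12.6 in sh-scramble and 7.12 to 11.8 in sh-Prmt1; their part in these rises was not tested.

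Eph receptors and ephrins met the limit for lists that moved alike, with medians of 0.84 and 0.45, but their members did not. Of 9, 2 rose in both, while the ephrins EFNA1 (-1.40 and 0.97) and EFNB2 (-2.55 and 1.11) and the receptor EPHA1 (-1.20 and 1.13; genotype edgeR adjusted p = 0.0539 for -1.22 without WT replicate 2) fell and then rose, and EPHB3 rose and then fell. EFNB2, a ligand of EPHB receptors that is enriched on the villus, was at 269 and 333 CPM in WT, 61.1 and 40.1 in Ctnnb1-ex3, 26.5 and 23.2 in sh-scramble, against 50.3 and 56.7 in sh-Prmt1. The receptor EPHB3 and the ligand EFNB2 thus moved in opposite directions within each experiment, and each reversed between them. Tuft cell genes had medians of 1.14 and 0.72 over 6 members, of which 3 rose with the genotype and 0 were called with the knockdown by edgeR; AVIL, a tuft cell actin binder, had 1.24 there (edgeR adjusted p = 0.0597). AVIL was the only 1 of the 6 with an unadjusted p under 0.05 in the knockdown, and DESeq2 called 0. Counts there were low: 13 and 10 for AVIL in sh-scramble, against 24 and 46 in sh-Prmt1. KCTD12, another member, had 12 and 15, against 34 and 27. At a mean count of at least 50 the tuft cell list had too few tested members to be compared.

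RAB15, a small GTPase of endosome recycling, ranked among the first 6 genes that rose in both: 33.9 and 32.7 CPM in WT, 82.1 and 99.5 in Ctnnb1-ex3 (1.44 ± 0.17, SE), 18.5 and 20.6 in sh-scramble, against 62.2 and 59.9 in sh-Prmt1 (1.64 ± 0.09, SE; edgeR adjusted p = 5.26e-06). SNN, TUBB2A, CHPF and PLCD3 were the others beside TIMP3. SNN had 2.95 and 1.58 on WT counts of 13 and 4 (3.55 without WT replicate 1, 2.19 under cyclic loess). TUBB2A, a beta-tubulin with near-identical relatives whose reads the counting could split, had 1.45 and 2.47. Its genotype call was lost without WT replicate 1 (1.41, edgeR adjusted p = 0.117) or WT replicate 2 (1.45, edgeR adjusted p = 0.115) and under cyclic loess with limma (0.88, adjusted p = 0.103). The genotype calls of CHPF (1.06, edgeR adjusted p = 0.115) and PLCD3 (1.45, edgeR adjusted p = 0.127) were lost without WT replicate 2. That of PLCD3 was also lost without WT replicate 1 (1.62, edgeR adjusted p = 0.106) and Ctnnb1-ex3 replicate 1 (0.59, edgeR adjusted p = 0.312), and both under cyclic loess with limma (0.87, adjusted p = 0.0646, and 0.81, adjusted p = 0.206). Beside 4.57% of all matched genes, 5 of 42 genes of the Wnt machinery (11.9%) rose in both. They included BCL9L, a coactivator of beta-catenin (1.98 and 0.90), and TLE1, a corepressor of TCF factors (0.63 and 1.05; genotype edgeR adjusted p = 0.142 for 0.56 without WT replicate 1 and 0.0818 for 0.65 without WT replicate 2).

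Genes that fell in both included several of sterol and energy metabolism. Of 24 cholesterol synthesis genes, 15 (62.5%) fell and 0 rose with the genotype, beside 21.7% of all matched genes that fell. With the knockdown 5 (20.8%) fell and 6 (25.0%) rose, no more than the 26.1% and 26.7% of all matched genes. The 5 (20.8%) that fell in both, against 5.88% of all matched genes, thus go with the many genotype falls. Medians less that of all genes were -0.60 and -0.17. SC5D, a sterol desaturase, was at 340.0 and 402 CPM in WT, 110.0 and 125 in Ctnnb1-ex3 (-1.66 ± 0.17, SE; edgeR adjusted p = 0.000428), 128 and 156 in sh-scramble, against 61.8 and 75.8 in sh-Prmt1 (-1.04 ± 0.12, SE; edgeR adjusted p = 0.000161). The isomerase IDI1 had -0.94 and -0.89, squalene synthase FDFT1 -0.84 and -0.79, and HSD17B7 -0.98 and -0.69. Among 11 alternatives their smallest genotype values were -0.39 for IDI1, -0.40 for FDFT1 and -0.74 for HSD17B7, with the calls kept. ELOVL6, which lengthens saturated fatty acids, was the gene of fatty acid and triglyceride synthesis that fell in both: 403 and 474 CPM in WT, 206 and 158 in Ctnnb1-ex3 (-1.27), 55.0 and 53.9 in sh-scramble, against 9.44 and 12.1 in sh-Prmt1 (-2.33 ± 0.12, SE; edgeR adjusted p = 4.74e-06). In that list 7 of 28 fell and then rose, among them the acyltransferases DGAT1 (-1.54 and 0.91) and DGAT2 (-2.13 and 0.86), which complete triglycerides.

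Citrate cycle genes mostly fell with the genotype and were divided in the knockdown; other mitochondrial lists had fewer calls. Of 25 citrate cycle genes, 21 fell and 2 rose with the genotype, and 8 rose and 9 fell with the knockdown. Thus 9 (36%) fell in both and 6 (24%) fell and then rose, against 5.88% and 6.62% of all matched genes. Both shares are raised by the many genotype falls. In the knockdown alone 32.0% of the list rose and 36.0% fell, beside 26.7% and 26.1% of all matched genes. Among all matched genes that fell with the genotype, 27.1% fell and 30.5% rose with the knockdown. Of 61 genes of oxidative phosphorylation, 20 (32.8%) fell and 0 rose with the genotype, beside 21.7% of all matched genes that fell, and 14 rose and 19 fell with the knockdown; 9 fell in both and 3 fell and then rose. Of 75 mitochondrial ribosomal protein genes, 14 (18.7%) fell with the genotype, and 14 rose and 32 (42.7%) fell with the knockdown, beside 26.1% of all matched genes that fell there. Succinate dehydrogenase was split. SDHA, its catalytic subunit, was at 406 and 479 CPM in WT, 221 and 286 in Ctnnb1-ex3, 54.0 and 52.0 in sh-scramble, against 104 and 96.2 in sh-Prmt1 (-0.81 and 0.92). SDHD, a membrane anchor of the same complex, was at 383 and 509, 206 and 275, 1360 and 1580, and 761 and 763 CPM in that order of groups (-0.89 and -0.95). The genotype calls of this pair were lost without WT replicate 2, with -0.70 for SDHA (edgeR adjusted p = 0.0763) and -0.69 for SDHD (edgeR adjusted p = 0.0802), and that of SDHA under cyclic loess with limma (-0.30, adjusted p = 0.0667). Of 33 genes of fatty acid oxidation and ketone synthesis, 24 fell with the genotype; 5 fell in both, among them the medium-chain dehydrogenase ACADM (-1.29 and -0.99) and the carnitine transferase CPT2 (-1.27 and -0.99), and 6 fell and then rose. ARL1, a GTPase of the Golgi, headed the genes that fell in both, from 100 and 93.6 to 24.7 and 41.1 CPM (-1.59 ± 0.23, SE) and from 170.0 and 209 to 62.9 and 70.8 CPM (-1.50 ± 0.12, SE).

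RNA-binding proteins, a main class of PRMT1 substrates, mostly fell in the knockdown; the difference between the experiments was not tested. Of 68 hnRNP, SR and FET genes, 44 (64.7%) fell and 2 (2.94%) rose with the knockdown, beside 26.1% and 26.7% of all matched genes. With the genotype 5 (7.35%) rose and 2 (2.94%) fell, beside 19.6% and 21.7% of all matched genes, and the medians less that of all genes were 0.00 and -0.43. Under cyclic loess the medians were 0.32 and -0.25. Only 5 members were called in both. TIA1, which regulates splicing and stress granules, had 0.73 and -0.50 (edgeR adjusted p = 0.129 for a genotype value of 0.64 without WT replicate 1). PTBP2, a neuronal splicing repressor, had 0.81 and -0.84, and its genotype call was lost without WT replicate 1 (0.81, edgeR adjusted p = 0.0882), WT replicate 2 (0.77, edgeR adjusted p = 0.113) or Ctnnb1-ex3 replicate 1 (0.52, edgeR adjusted p = 0.0585). Of 66 spliceosome core genes, 14 (21.2%) rose with the genotype, beside 19.6% of all matched genes. In the knockdown 32 (48.5%) fell, beside 26.1%. Both held for 4 (6.06%), beside 4.84% of all matched genes, and the list medians were 0.16 and -0.26.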

How the data were processed

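RNA was measured in 8 libraries, 2 per group. The genotype table holds whole-number counts per mouse gene as deposited by the authors, with a lowest value of 1; the counter is not given in the sources used here. The knockdown tables hold estimated counts per human gene, deposited by the authors as Salmon gene tables. The submitters' processing notes also name DESeq2 and mm10, with no versions or roles. The authors' deposited comparison tables hold log2 fold changes and p-values, used only to pair human identifiers with symbols and for the counts credited to them.

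Estimated counts were rounded to whole numbers. Each experiment was fitted on its whole table with edgeR 4.0.16 in R 4.3.3 (filterByExpr, TMM, quasi-likelihood test, two-sided, Benjamini-Hochberg adjustment over all genes tested), and genes with an adjusted p under 0.05 were called. The SE is the log2 fold change divided by the square root of F. The code was tested on simulated data: with 97 genes changed by 1 on the log2 scale, 49.5% were called in the genotype design, and with 96 such genes 86.5% in the knockdown design. A fixed set of sex-linked human genes, 154 in all, was left out of the knockdown tables.

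The members and gene lists were chosen with earlier results of these data known. Genes named are PRMT1, CTNNB1, AXIN2, LGR5, MYC, CDKN1A and MKI67; in each of the 4 classes, the 6 with the largest smaller absolute change among genes whose average log2 CPM reached 3 in both experiments; and in each list up to 4 members called in both, by the same measure, or up to 2 called in either where none was. Some list members outside this rule are named as such or only in passing. Alternatives were other scalings, DESeq2 1.42.0, no filter on low counts, 1 taken from each genotype count, a mean count of at least 50, each library left out, and the replicate block; cyclic loess with limma 3.58.1 and upper-quartile factors were added after seeing the data. Replicate numbers were not treated as pairs.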

Additional observations from a re-analysis of the deposited data

How the results depend on the processing

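With 2 libraries a group, the genotype calls rested on both WT libraries. Leaving out 1 library at a time gave 2630 (without WT replicate 2) to 7750 genes called with the genotype (5286 in all libraries), 471 to 1387 called in both in the same direction (986) and 564 to 1449 in opposite directions (1082); where a group was left with 1 library, that library was assumed to vary like the others. The cause was not tested. The correlation of the log2 fold changes was -0.056 at a mean count of at least 50 and -0.075 under cyclic loess, and cyclic loess left 5 of the 8 opposite lists, without lysosome, junction and goblet cell genes; without WT replicate 2 or Ctnnb1-ex3 replicate 1, 7 were left, without goblet cell genes. At a mean count of at least 50, tuft cell and enteroendocrine genes had too few tested members, and 7 opposite and 2 concordant lists were left. Under DESeq2 206 genes rose in both, against 431, and with upper-quartile factors 679. Genes that fell in both numbered 311 with upper-quartile factors and 387 under cyclic loess, against 555. The replicate block gave 6475 genotype calls, and 1220 and 1281 genes called in both in the same and in opposite directions. Deviations of same-numbered libraries from their group means correlated at 0.0694 in the genotype and -0.0514 in the knockdown experiment. These are single values over all tested genes, which cannot show whether the numbers pair the libraries. Calls of named genes were lost most often without WT replicate 2 (35) and WT replicate 1 (29). Depth in WT was 4628534 and 2950110 counts; its part in these losses was not tested.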
